A study of Mus musculus with 20 samples.

Results

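Around 52 genes that encode lineage-specifying transcription factors, 3 of 47 RAD21 peaks and 1 of 50 CTCF peaks of untreated cells lay within 1 kb of start sites. These are 6.38% and 2%, beside 11.1% and 10.4% of all such peaks near genes. Of 21 MAZ peaks 15 lay there, 71.4% beside 79.3%. The genes were listed by name, with earlier results of these data known, and no measured value enters the rule: 6 Pax, 4 Gata, 7 Lhx, 4 Fox, 3 Sox, 6 Tbx, 4 Nkx, 4 Dlx, 4 Irx and 6 basic helix-loop-helix (bHLH) genes together with the sine oculis genes Six2 and Six3 and the homeobox genes Barhl1 and Gbx2. They are 52 of 21938 protein-coding genes on the mouse autosomes and sex chromosomes, and each was read from 10 kb before its start to 10 kb after its end. The windows cover 2.063 Mb of mm10, and 314 of the 136043 peaks in 12 lists fall in them, at 131 distinct sites. Their silence in embryonic stem (ES) cells is the name given to the group, and neither transcription nor a Polycomb mark was measured here.

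The peaks come from chromatin immunoprecipitation with sequencing (ChIP-seq) for CTCF, MAZ and the cohesin subunit RAD21 in E14 mouse ES cells, a pluripotent line grown with LIF and inhibitors of the MEK and GSK3 kinases. Every group carries CTCF fused to an auxin-inducible degron. WT cells were untreated, ΔCTCF cells received auxin for 2 days, ΔMAZ cells carry a Maz knockout without auxin, and ΔCTCF/ΔMAZ cells combine the knockout with auxin. The knockout libraries all come from the line labelled B2, so that features of that line and the loss of MAZ cannot be told apart. Each antibody and condition has 1 peak list, and no difference between conditions has a replicate check. By the labels, CTCF and MAZ have another replicate in all 4 conditions, which was not analysed here, and RAD21 has 1 sample in each.

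Lineage-specifying transcription factors switch on whole programs of gene expression as the embryo forms its tissues. In pluripotent cells many of their genes carry CpG-rich promoters bound by Polycomb complexes, which hold transcription off while leaving the gene ready for later use. CTCF is a zinc finger protein that halts the loop-extruding cohesin ring at its binding sites, RAD21 is the subunit that closes that ring, and MAZ is a zinc finger protein that binds G-rich DNA, often at promoters.

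Whole lists ranged from 33 peaks for MAZ in each knockout condition to 26394 for CTCF in WT. Loss of the targets showed in list length: CTCF fell from 26394 peaks in WT to 2381 in ΔCTCF and from 26053 in ΔMAZ to 2570 in ΔCTCF/ΔMAZ, and MAZ fell from 6265 peaks in WT to 33 in ΔMAZ. The RAD21 libraries were not equally deep. By the lowest background value that a list implies, divided by its narrowest peak width, the RAD21 ΔCTCF library was 2.18 times as deep as WT, ΔMAZ 1.29 times and ΔCTCF/ΔMAZ 0.931 times, and the MAZ ΔCTCF library was 0.377 times as deep as MAZ WT. Total reads were not known, so this depth is inferred from that ratio alone. A deeper library lets weaker peaks pass, and the RAD21 counts after auxin are therefore also given with each list scaled to the inferred depth of another.

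The sites where CTCF was still called after auxin are shown first. Each is 201 bases of GRCm38 centred on the summit of the stronger peak after auxin and written on the strand of the gene, with negative distances upstream of the start. Capitals mark the CTCF core string, which is CCA, 2 bases of any kind, AG, 2 bases of any kind and GGC, or its reverse complement, or, where neither is present, the stretches that differ from it at 1 of its 8 fixed bases.
Hand1, 11974 bases from the start, chr11:57820073-57820273: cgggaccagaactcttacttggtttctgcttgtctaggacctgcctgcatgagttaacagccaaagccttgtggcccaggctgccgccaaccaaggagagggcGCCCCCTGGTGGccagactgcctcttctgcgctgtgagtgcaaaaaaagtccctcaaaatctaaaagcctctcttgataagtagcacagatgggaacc
Neurog2, 1101 bases from the start in coding sequence, chr3:127634136-127634336: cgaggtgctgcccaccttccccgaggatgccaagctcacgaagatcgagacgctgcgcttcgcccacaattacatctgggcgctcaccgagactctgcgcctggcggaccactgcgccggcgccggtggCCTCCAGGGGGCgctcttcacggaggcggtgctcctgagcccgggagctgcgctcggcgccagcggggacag
Lhx2, 25373 bases from the start, chr2:38376032-38376232: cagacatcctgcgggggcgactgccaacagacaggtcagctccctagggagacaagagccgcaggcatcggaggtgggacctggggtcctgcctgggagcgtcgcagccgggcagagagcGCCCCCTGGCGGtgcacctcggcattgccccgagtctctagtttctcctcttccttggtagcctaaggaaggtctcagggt
Gata2, -4246 bases from the start, chr6:88189545-88189745: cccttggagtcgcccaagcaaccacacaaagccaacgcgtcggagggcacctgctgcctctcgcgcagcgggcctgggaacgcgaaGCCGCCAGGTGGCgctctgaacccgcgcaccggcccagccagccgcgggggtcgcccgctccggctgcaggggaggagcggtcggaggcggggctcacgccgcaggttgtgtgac
Dlx2, -1311 bases from the start, chr2:71547965-71548165: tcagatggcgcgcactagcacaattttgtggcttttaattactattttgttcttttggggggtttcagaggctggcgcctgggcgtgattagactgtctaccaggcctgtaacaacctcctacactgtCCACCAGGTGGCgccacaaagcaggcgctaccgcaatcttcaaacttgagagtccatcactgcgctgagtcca
Nkx2-1, -4350 bases from the start, chr12:56541158-56541358: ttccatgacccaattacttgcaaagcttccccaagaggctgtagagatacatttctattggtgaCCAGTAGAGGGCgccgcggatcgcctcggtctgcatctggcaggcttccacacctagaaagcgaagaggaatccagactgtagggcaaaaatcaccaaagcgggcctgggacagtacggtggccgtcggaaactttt
The exact string is present at Hand1, Dlx2 and Nkx2-1 and absent at Neurog2, Lhx2 and Gata2, where a near match is found. Over all CTCF peaks of ΔCTCF, 49.3% held the exact string and 86.1% the string with at most 1 changed base, so its presence is not a mark of these sites.

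Next are the promoter summits that MAZ held in WT and whose peak was called again in ΔCTCF, for the 3 of these genes whose 201 bases touch no untranslated exon. Capitals mark the MAZ core string GGGAGGG or its reverse complement CCCTCCC.
Neurog1, -143 bases from the start, chr13:56252206-56252406: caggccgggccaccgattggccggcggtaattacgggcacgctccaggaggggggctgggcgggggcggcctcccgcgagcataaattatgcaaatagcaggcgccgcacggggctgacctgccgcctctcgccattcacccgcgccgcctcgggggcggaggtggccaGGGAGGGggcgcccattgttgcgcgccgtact
Irx2, -120 bases from the start, chr13:72628600-72628800: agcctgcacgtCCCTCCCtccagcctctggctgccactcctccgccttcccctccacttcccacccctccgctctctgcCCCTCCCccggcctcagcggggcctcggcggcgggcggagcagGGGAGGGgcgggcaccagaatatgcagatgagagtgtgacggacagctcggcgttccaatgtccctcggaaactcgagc
Six2, -201 bases from the start, chr17:85688375-85688575: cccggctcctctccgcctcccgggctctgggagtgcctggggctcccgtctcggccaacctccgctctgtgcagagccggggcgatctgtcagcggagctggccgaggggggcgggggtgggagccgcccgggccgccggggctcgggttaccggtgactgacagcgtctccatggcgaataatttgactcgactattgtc
Irx2, which had the highest MAZ fold enrichment at a promoter of the 52 genes, holds 3 copies, Neurog1 holds 1 and Six2 holds none.

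The last set shows the promoters where RAD21 was called in ΔCTCF with no overlapping RAD21 peak in WT, for the 6 of 11 such genes whose 201 bases touch no untranslated exon. Capitals mark GGGAGGG or CCCTCCC, and none of the 11 holds the CTCF core string.
Gata3, -505 bases from the nearest start, chr2:9879005-9879205: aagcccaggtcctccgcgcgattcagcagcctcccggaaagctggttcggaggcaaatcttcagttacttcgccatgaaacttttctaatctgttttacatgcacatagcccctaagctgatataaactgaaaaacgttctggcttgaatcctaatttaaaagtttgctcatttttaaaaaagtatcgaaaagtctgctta
Lhx8, 145 bases from the nearest start, chr3:154329814-154330014: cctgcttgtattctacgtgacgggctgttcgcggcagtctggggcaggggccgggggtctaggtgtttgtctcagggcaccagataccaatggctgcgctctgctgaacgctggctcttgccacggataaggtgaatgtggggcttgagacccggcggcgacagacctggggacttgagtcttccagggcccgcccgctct
Pax7, -402 bases from the nearest start, chr4:139833830-139834030: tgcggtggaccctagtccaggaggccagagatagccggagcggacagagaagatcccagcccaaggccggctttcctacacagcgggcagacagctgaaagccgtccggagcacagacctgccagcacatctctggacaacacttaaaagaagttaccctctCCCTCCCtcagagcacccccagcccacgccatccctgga
Gata2, 479 bases from the nearest start, chr6:88194270-88194470: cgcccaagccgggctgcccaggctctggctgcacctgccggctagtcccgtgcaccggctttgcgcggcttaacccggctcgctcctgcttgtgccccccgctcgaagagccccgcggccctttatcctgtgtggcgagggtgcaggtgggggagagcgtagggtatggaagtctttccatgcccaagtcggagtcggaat
Foxf1, -674 bases from the nearest start, chr8:121083612-121083812: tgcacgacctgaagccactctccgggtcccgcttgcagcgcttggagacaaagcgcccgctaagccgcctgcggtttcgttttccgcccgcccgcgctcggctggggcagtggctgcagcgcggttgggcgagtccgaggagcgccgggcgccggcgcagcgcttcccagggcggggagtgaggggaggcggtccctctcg
Tbx20, -135 bases from the nearest start, chr9:24774338-24774538: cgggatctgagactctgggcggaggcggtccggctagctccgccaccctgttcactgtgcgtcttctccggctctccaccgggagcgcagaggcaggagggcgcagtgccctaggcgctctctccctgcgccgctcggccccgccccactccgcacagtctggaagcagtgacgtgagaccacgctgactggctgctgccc
The 6 stretches are 41.3% to 73.1% G and C. Of these promoter peaks, that of Tbx20 is the 1 still listed when ΔCTCF is scaled to the inferred depth of WT, as described below. The MAZ string is in the Pax7 stretch and in none of the other 10.

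A CTCF peak was found within 10 kb of 36 of the 52 genes in WT, 69.2% (Wilson 95% interval 55.7 to 80.1), beside 55.1% of all protein-coding genes. Auxin left 5 of the 52 in ΔCTCF (background 8.57%) and 4 in ΔCTCF/ΔMAZ (9.22%), whereas ΔMAZ alone had 34 (54.1%). The genes differ from the background in length, with a median of 8534 bases against 17425 for all genes, so their windows are shorter. Per Mb of window the peaks were dense, with 24.24 CTCF peaks in WT beside 14.54 in the windows of all genes, 22.78 RAD21 peaks beside 10.72 and 10.18 MAZ peaks beside 4.50, differences that were not tested. Windows of shorter genes hold more start sites in each Mb, so these densities still depend on gene length. RAD21 was found at 34 genes in WT (48.0%) and 30 after auxin (43.5%), or 25 when scaled to the inferred depth of WT (38.0% of all genes), and in the knockout line at 33 without auxin (48.7%) and 14 with it (21.5%). MAZ was found at 16 genes in WT (30.1%) and 17 in ΔCTCF (31.8%). In neither knockout list was a MAZ peak found at any of the 52 genes, which allows up to 6.88% of them by the Wilson interval, beside 0.0820% of all genes in ΔMAZ and 0.0684% in ΔCTCF/ΔMAZ. The intervals cover counting error over genes only.

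**Figure D1:**
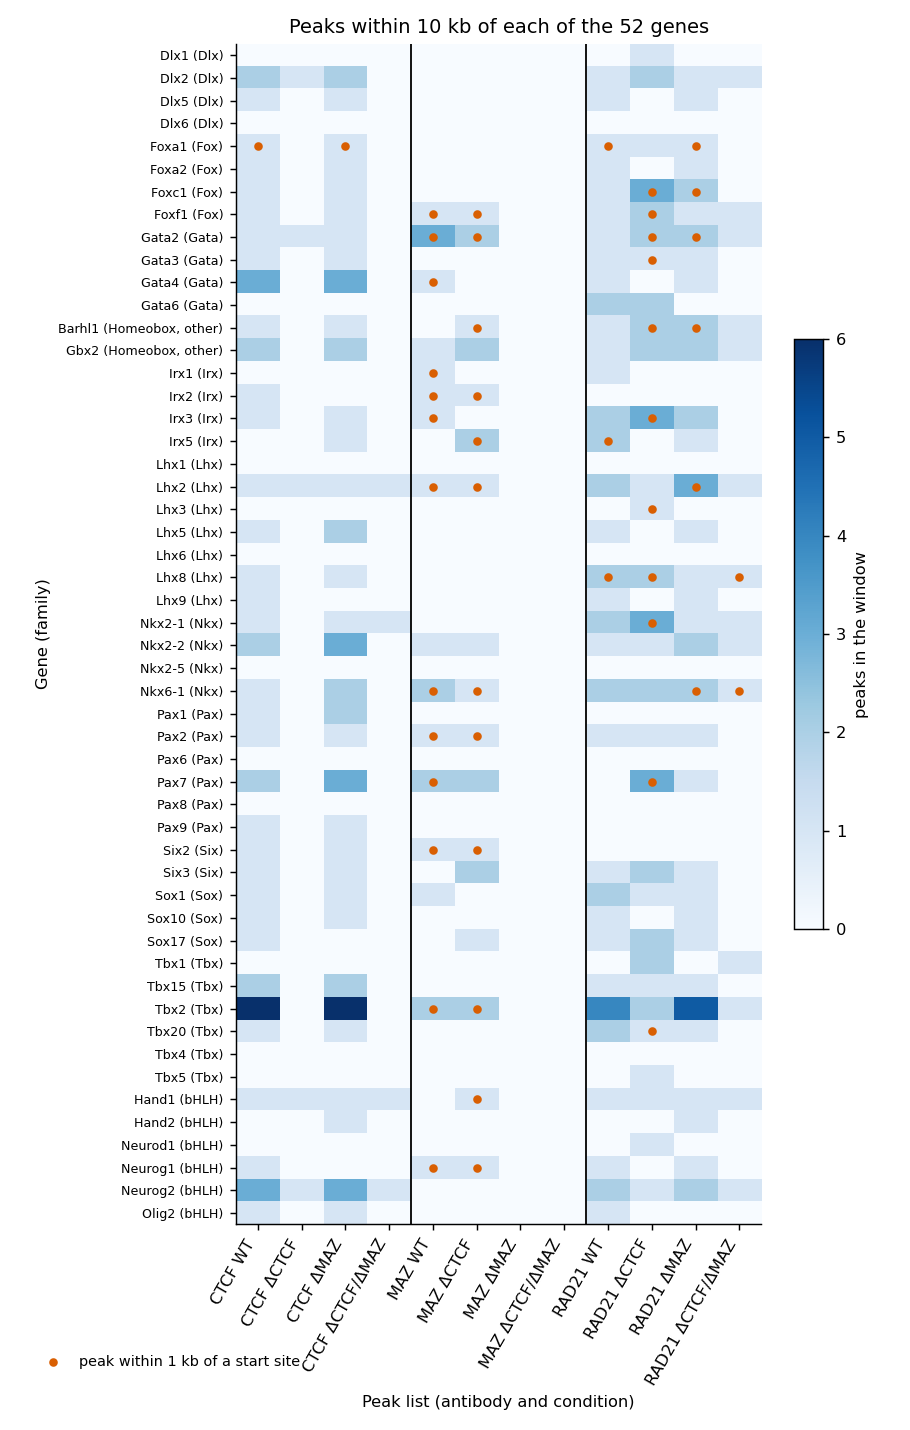
Number of peaks in the window of each of the 52 genes (rows, with family) in each of the 12 lists (columns, antibody and condition). Blue shading is the count of peaks, from 0 to 6, and an orange dot marks a summit within 1 kb of a start site; the dots sit almost all in the MAZ and RAD21 columns, and Tbx2 has the darkest cells.

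A summit within 1 kb of an annotated start site is called a promoter peak here. CTCF had 1 promoter gene of 52 in WT, which is 1.92% (0.34 to 10.1) beside 8.99% of all genes, and the same gene in ΔMAZ (background 8.83%). That gene is Foxa1, a pioneer factor of endoderm, whose CTCF summit lies 965 bases from a start, at the edge of the limit. With a limit of 2500 bp, 7 of the 52 genes had a CTCF summit near a start in WT. The share of all genes at that limit was not counted. None had a CTCF promoter peak in ΔCTCF (1.28%) or ΔCTCF/ΔMAZ (1.36%). MAZ had promoter peaks at 13 genes in WT, 25% (15.2 to 38.2) beside 21.0%, and at 12 in ΔCTCF beside 21.7%, with 0 in either knockout list beside 0.0319% in both. RAD21 had promoter peaks at 3 genes in WT (6.98%) and 11 after auxin (18.0%), or 3 when scaled to the inferred depth of WT (13.7%), and in the knockout line at 6 without auxin (9.05%) and 2 with it (6.09%). As deposited, the RAD21 and MAZ shares lay near those of all genes, and the CTCF share in WT lay below its background value, inside the interval.

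**Figure D2:**
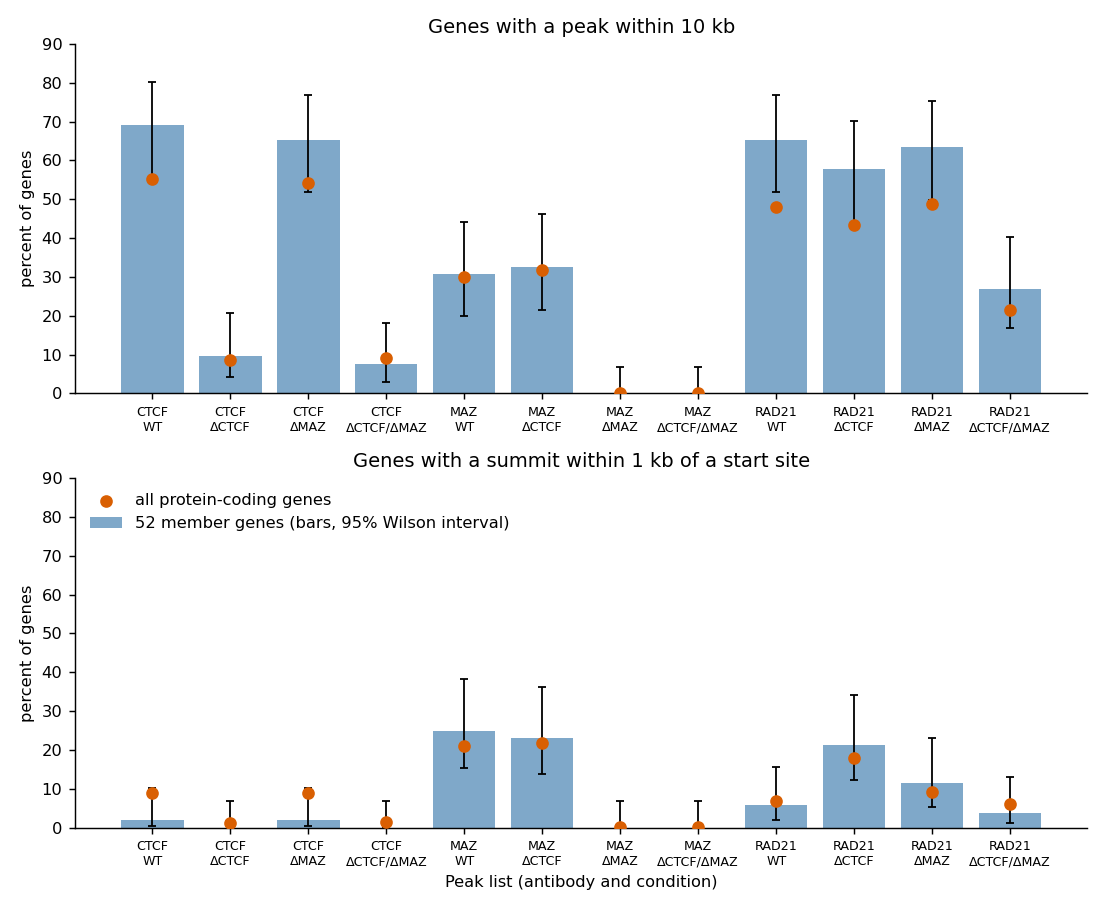
Percent of the 52 genes (bars, with Wilson 95% intervals) and of all protein-coding genes (orange points) with a peak within 10 kb (upper panel) or with a summit within 1 kb of a start site (lower panel), for each of the 12 lists. In WT and ΔMAZ the CTCF and RAD21 bars stand at 63.5% or more in the upper panel and at 11.5% or less in the lower panel. After auxin the CTCF bars are at 9.62% and 7.69% above and 0 below. RAD21 is at 57.7% above and 21.2% below in ΔCTCF, and at 26.9% and 3.85% in ΔCTCF/ΔMAZ. The MAZ bars in WT and ΔCTCF stand at 30.8% and 32.7% above and at 25% and 23.1% below.

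Distances to the start show the same arrangement in bases. The median CTCF summit in WT lay 8219 bases from the nearest start of its gene and the median RAD21 summit 5845 bases, whereas the median MAZ summit lay 462 bases away. Of the 50 CTCF peaks in WT, 19 were upstream, 16 downstream and 14 in the gene body. Of 21 MAZ peaks in WT, 15 were promoter peaks, 71.4% (50.0 to 86.2), where 79.3% of all MAZ peaks within 10 kb of a protein-coding gene lay at a start. For CTCF in WT 1 of 50 did, 2% beside 10.4%, and for RAD21 in WT 3 of 47, 6.38% beside 11.1%, differences that were not tested. Of the 131 sites, 36 held CTCF and RAD21 in some list without MAZ, 42 RAD21 alone, 24 MAZ alone, 18 CTCF alone, 8 MAZ with RAD21, and 3 all of them. The 3 sites with all of them were upstream of Gata2, upstream of Gbx2 and downstream of Tbx2, none of them at a promoter.

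CTCF at these genes was lost after auxin as elsewhere. Of 50 peaks in WT, 5 overlapped a peak in ΔCTCF, 10.0% (4.35 to 21.4) beside 8.83% of all CTCF peaks, and of 53 peaks in ΔMAZ, 4 overlapped a peak in ΔCTCF/ΔMAZ, 7.55% beside 9.72%. The lists are of unequal length, and with the strongest peaks of each pair cut to equal numbers the shares were 4 of 7, 57.1% beside 42.5% of all, and 3 of 5, 60% beside 51.4%. Loss of MAZ alone left CTCF in place, with 46 of 50 WT peaks called in ΔMAZ, 92.0% (81.2 to 96.8) beside 85.5%. CTCF remained after auxin in both lines at Hand1, a bHLH gene of trophoblast and heart, Neurog2, a driver of neurogenesis, and Lhx2, a factor of the eye and forebrain. It remained in ΔCTCF alone at Dlx2, a forebrain interneuron gene, and Gata2, a gene of blood progenitors, and in ΔCTCF/ΔMAZ alone at Nkx2-1, a gene of thyroid, lung and ventral forebrain.

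The listed fold enrichments are the pileup over the local background, with a small constant added to both. Values from lists of unequal depth are thus not on the same scale. The values fell at each of these sites. At Hand1 CTCF went from 34.62 in WT to 8.15 after auxin, and in the knockout line from 33.93 to 10.67. At Lhx2 it went from 32.97 to 12.84 and from 35.02 to 10.69, and at Neurog2 from 34.62 to 8.89 and from 38.08 to 8.79. Each value after auxin was below its untreated one at these 3 genes, although the lists are not scaled to each other. The Gata2 site had CTCF at 35.29 in WT, 8.15 in ΔCTCF and 36.01 in ΔMAZ, the Dlx2 site 22.64, 7.41 and 20.77, and the Nkx2-1 site 29.30 in WT, 21.47 in ΔMAZ and 7.53 in ΔCTCF/ΔMAZ. RAD21 was listed at all 6 sites in all 4 conditions, and the 5 CTCF peaks of ΔCTCF and the 4 of ΔCTCF/ΔMAZ all overlapped RAD21, beside 89.7% and 78.4% of all CTCF peaks of those lists.

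**Figure D3:**
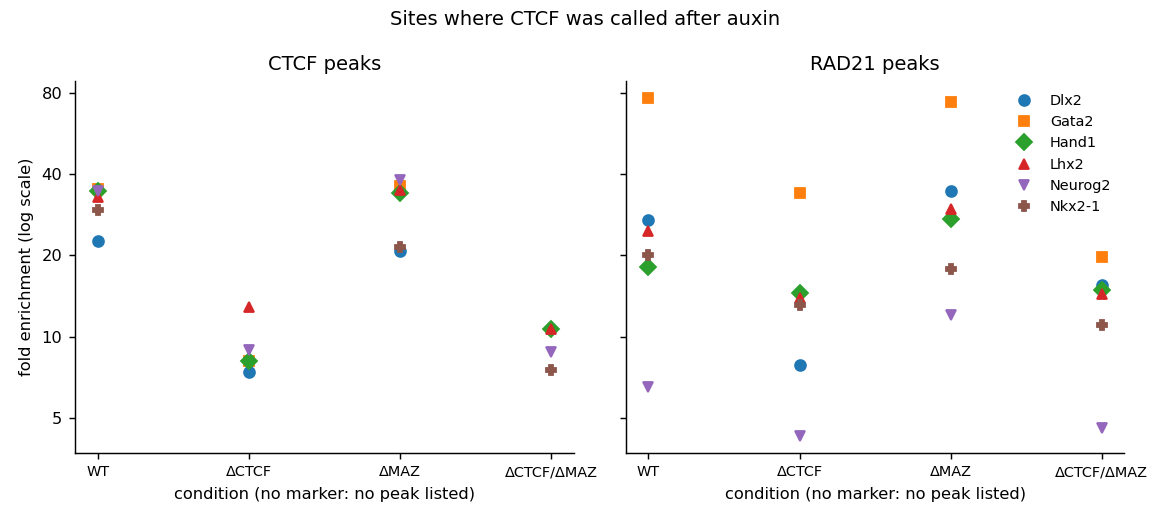
Fold enrichment (log scale) of CTCF (left) and RAD21 (right) in the 4 conditions at the 6 sites where CTCF was called after auxin, 1 marker shape for each gene. CTCF markers lie at 20.77 or above in WT and ΔMAZ and at 12.84 or below after auxin, and RAD21 is listed at every site in every condition.

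The site upstream of Gata2, at -4233 bases, had the highest RAD21 value of the 52 genes in each of the 4 lists, 76.51 in WT and 34.07 after auxin, and 73.73 and 19.68 in the knockout line. It was also the only site with peaks in 9 of the 12 lists, with MAZ at 8.80 in WT and 6.58 in ΔCTCF. The MAZ summit there in WT lies within 1 kb of the start of the noncoding gene Gm38708. In the same order RAD21 at Hand1 was 18.13, 14.53, 27.20 and 14.82, at Lhx2 24.68, 13.85, 29.79 and 14.40, and at Nkx2-1 20, 13.10, 17.76 and 10.99. At these 4 sites the values after auxin were above the medians of the 52 genes' RAD21 peaks, which were 4.36 in ΔCTCF and 5.95 in ΔCTCF/ΔMAZ. At Dlx2 RAD21 was 26.95, 7.86, 34.74 and 15.56, and at Neurog2, the weakest of the 6, it was 6.52, 4.29, 11.97 and 4.58.

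MAZ had a promoter peak at 16 of the 52 genes in 1 or both of the lists from cells that have MAZ, 30.8% beside 27.0% of all genes, and at 9 genes in both, 17.3% beside 15.7%, so that the shares lay near those of all genes. The 9 were Gata2, Lhx2, Nkx6-1, Foxf1, Tbx2, Neurog1, Irx2, Six2 and Pax2. Gata4, Irx1, Irx3 and Pax7 had one in WT alone, and Barhl1, Hand1 and Irx5 in ΔCTCF alone. Fold enrichments were modest, from 3.41 to 8.80 over all 21 member peaks in WT and from 4.1 to 11.61 over 23 in ΔCTCF. Irx2, a member of an Iroquois cluster that patterns neural tissue, was highest at a promoter, 8.59 in WT and 11.61 in ΔCTCF. Neurog1, a gene of sensory neurons, followed with 7.16 and 7.35, Six2, which maintains nephron progenitors, had 5.73 and 5.42, and Pax2, a kidney and optic gene, had 5.52 and 5.42. Tbx2, a repressor of the heart and limb, had 4.28 and 4.37.

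MAZ peaks of WT and ΔCTCF overlapped in a lower share at the 52 genes than over the genome, and the difference was not tested. Of 21 WT peaks 9 overlapped a ΔCTCF peak, 42.9% (24.5 to 63.5) beside 66.3% of all MAZ peaks, and in the other direction 9 of 23, 39.1% (22.2 to 59.2) beside 61.6%. The share stayed between 31.2% and 42.9% under every alternative overlap and strength limit tried, but the peaks number 21 and 23, and peak strength was not matched. At 3 of the 9 genes marked in both lists, Gata2, Lhx2 and Foxf1, the promoter peaks do not overlap each other: at Foxf1, a gene of lung mesenchyme, the summit lay at -121 bases in WT with 5.73 and at -561 bases in ΔCTCF with 5.80. Nkx6-1 had 5.11 and 4.64 at overlapping peaks, and a further promoter peak of 3.70 in WT that overlapped none in ΔCTCF. Gata2 and Lhx2 had 4.57 and 4.66 in WT and 5.15 and 6.45 in ΔCTCF. Genes with promoter peaks in WT alone were Irx1 at 3.48, Gata4, a heart and endoderm factor, at 3.64, Irx3 at 6.55 and Pax7 at 4.91 and 3.89. Those seen in ΔCTCF alone were Barhl1 at 5.34, Hand1 at 5.70 and Irx5 at 5.42 and 4.63. The MAZ library of WT was the deeper one, and scaled to the inferred depth of ΔCTCF, an alternative chosen after the data were seen, it kept 11 of its 13 promoter genes, without Irx1 and Gata4, and 17.8% of all genes.

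In WT most RAD21 peaks overlapped CTCF. Of 47 RAD21 peaks, 34 overlapped CTCF, 72.3% (58.2 to 83.1) beside 86.0% of all RAD21 peaks, and 1 overlapped MAZ (2.59% of all), the Gata2 upstream site. With both lists limited to a −log10 q of at least 5, 32 of 37 RAD21 peaks overlapped CTCF, 86.5%. The share of all RAD21 peaks at that limit was not counted, and 86.0% is not its background. In ΔCTCF 5 of 50 overlapped CTCF (11.9% of all) and 5 of 50 overlapped MAZ (11.9% of all), and with each pair cut to equal numbers 3 of 4 overlapped CTCF (57.0% of all) and 2 of 9 MAZ (7.28%). The loss of MAZ alone left 34 of 47 WT peaks called, 72.3% beside 83.5%.

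After CTCF loss many RAD21 peaks around these genes were listed at other positions, at shares near those of all RAD21 peaks. Of 47 WT peaks, 18 overlapped a ΔCTCF peak, 38.3% (25.8 to 52.6) beside 38.9% of all, leaving 29 lost. Of 50 peaks in ΔCTCF, 32 at 23 genes overlapped no WT peak, 64.0% (50.1 to 75.9) beside 55.9% of all. Such peaks are called relocalized. The lost peaks lay a median of 7166 bases from a start, with 12 upstream, 9 in the gene body, 6 downstream and 2 at promoters. The relocalized peaks lay a median of 1578 bases away, with 18 in the gene body, 11 at promoters, 3 upstream and 0 downstream, and 27 of 32 were within 5 kb of a start. The promoter shares were 6.90% for lost and 34.4% for relocalized peaks, near the 5.68% and 31.6% of all peaks of each class, which were counted with or without a gene nearby. Scaled to the inferred depth of WT, 17 relocalized peaks at 15 genes were left, with 11 in the gene body, 3 at promoters and 3 upstream, a median of 2163 bases from a start. By annotation, 12 of the 32 summits were in introns, 7 in untranslated exons, 6 in coding exons and 7 outside the gene.

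**Figure D4:**
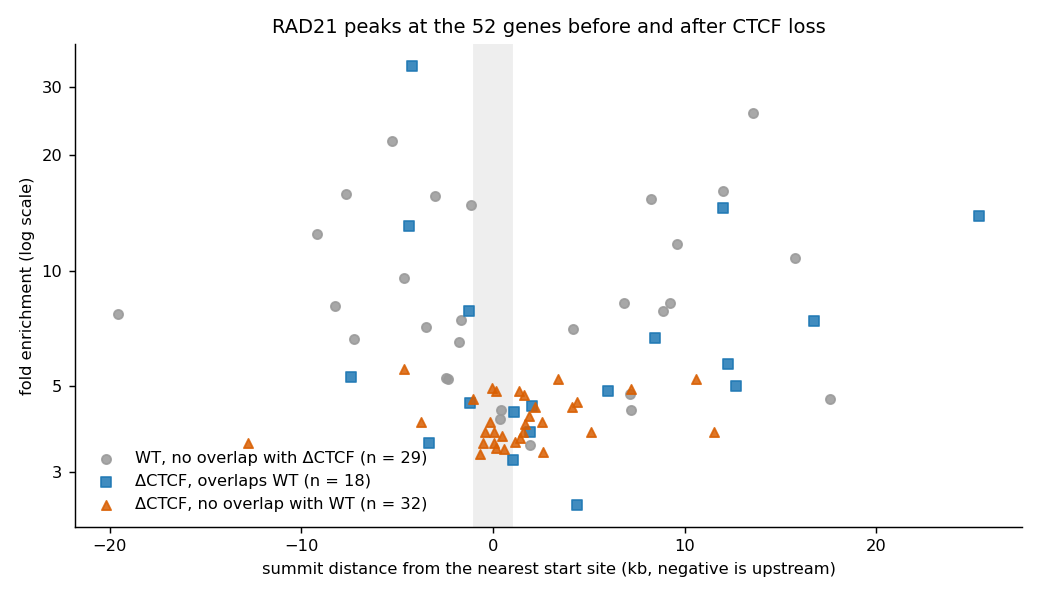
Fold enrichment (log scale) against distance of the summit from the nearest start site (kb) for RAD21 peaks lost in ΔCTCF (grey, WT value), retained (blue, ΔCTCF value) and relocalized (orange, ΔCTCF value), with the promoter zone shaded. Orange points crowd the start sites at 3.34 to 5.54, whereas grey and blue points spread over the flanks and reach 25.65 and 34.07.

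The relocalized peaks were weak. Their fold enrichment ran from 3.34 to 5.54 with a median of 4.03, close to the 4.29 of all relocalized peaks, against 7.83 for the lost peaks in WT and 5.15 for the retained peaks in ΔCTCF. The WT library was inferred to be shallower than ΔCTCF, so 7.83 is not on the same scale as the other values. Promoter peaks were listed at Lhx3, a pituitary and motor neuron factor, at 4.94, Barhl1, a neuronal homeobox gene, at 4.85, Tbx20, a heart factor, at 4.05, Pax7, a muscle stem cell gene, at 3.81, Foxc1, a mesoderm gene, at 3.80 and Gata2 at 3.71. The others were Gata3, a T cell and kidney factor, and Nkx2-1, each at 3.57, Lhx8, a basal forebrain factor, at 3.46, Irx3 at 3.44 and Foxf1 at 3.34. Of these 11 genes, 10 had no RAD21 promoter peak in WT. Lhx8 had one in WT at 4.12 that does not overlap the later one. Irx5 had one at 4.35 in WT alone, and Foxa1 had 10.43 in WT and an overlapping peak of 3.21 in ΔCTCF whose summit, 1051 bases from a start, falls just outside the limit.

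The number of promoter genes depended on the scaling. When the RAD21 pileups and backgrounds were scaled to the inferred depth of WT, an alternative added after the data were seen, 31 of the 50 ΔCTCF peaks and 82.3% of all ΔCTCF peaks still passed, and 3 genes had a promoter peak, Lhx3, Barhl1 and Tbx20, the same number as in WT. Over all protein-coding genes the share with a RAD21 promoter peak after auxin was 13.7% in the same scaling, beside 6.98% in WT. At the inferred depth of ΔCTCF/ΔMAZ, 2 were left, Lhx3 and Barhl1, beside 10.3% of all genes. The share of relocalized peaks was 54.8% (37.8 to 70.8) when scaled to WT, 17 of 31, beside 49.0% of all. A limit of 5 on −log10 q left 2 promoter genes in ΔCTCF and 1 in WT, beside 10.5% and 6.05% of all genes, and a limit of 10 left 0 and 1, beside 3.56% and 4.1%. The count of RAD21 peaks turned as well, from 47 in WT and 50 in ΔCTCF as deposited to 37 and 26 with the limit of 5. Genes with a RAD21 peak went from 34 and 30 to 30 and 22. Over all protein-coding genes these shares went from 48.0% and 43.5% to 46.3% and 33.7%.

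**Figure D5:**
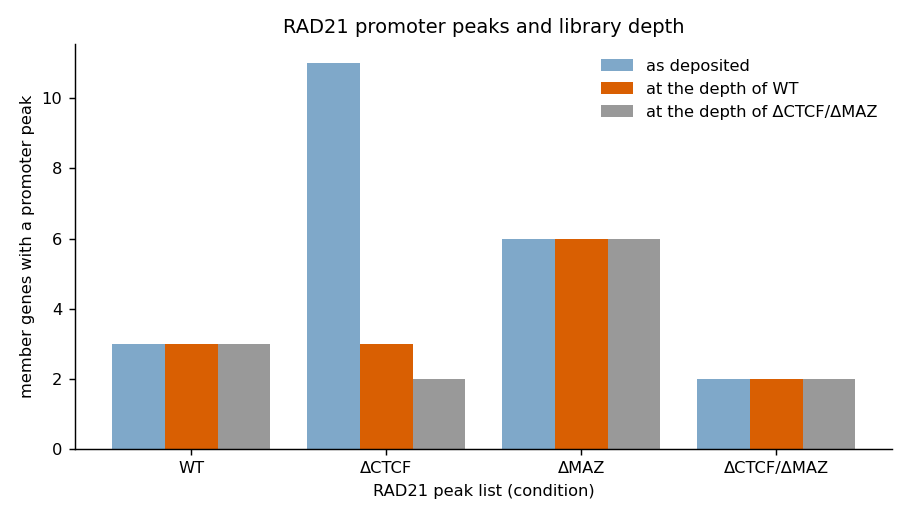
Number of the 52 genes with a RAD21 promoter peak in each condition, as deposited (blue) and with each list scaled to the inferred depth of WT (orange) or of ΔCTCF/ΔMAZ (grey). The ΔCTCF bar falls from 11 to 3 and 2, and the ΔMAZ bar remains at 6.

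Few relocalized RAD21 peaks overlapped MAZ. Of 32 relocalized peaks 3 overlapped MAZ of ΔCTCF, 9.38% (3.24 to 24.2) beside 17.7% of all relocalized peaks, a value inside the interval, and 1 overlapped a CTCF peak of WT. Of the 17 left when scaled to the inferred depth of WT, 1 overlapped MAZ, and the share of all relocalized peaks in that scaling was not counted. Beyond the promoters, 18 relocalized peaks lay in gene bodies, such as those at 5.24 in Tbx5, a heart and forelimb gene, at 4.76 in Dlx1, at 4.18 in Dlx2 and at 3.38 in Neurod1, a pancreatic and neuronal bHLH gene. Tbx5, Dlx1, Neurod1 and Lhx3 had no RAD21 peak in any other condition and no CTCF or MAZ peak in any list. The other gene body peaks were at Sox17 (5.24), Nkx2-2 (4.92), Pax7 (4.85 and 3.81), Tbx1 (4.56 and 3.80), Foxc1 (4.43 and 3.67), Irx3 (4.43), Gata6 (4.05), Lhx8 (4.00), Nkx6-1 (3.81), Six3 (3.59) and Tbx15 (3.57), none of them above 5.24. Upstream peaks were listed at Gbx2 at 5.54 and 4.05 and at Gata6, a primitive endoderm factor, at 4.64. Gbx2, a gene of the midbrain and hindbrain border, is also known to be active in mouse ES cells grown with LIF, which sets it apart from the name of the group.

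In the Maz knockout line the number of genes with RAD21 at the promoter was lower after auxin, with 5 genes no longer listed and 1, Lhx8, added, but not when every RAD21 list was cut to the same number of its strongest peaks, where it was 1 before and 2 after (2.10% and 6.09% of all genes). RAD21 promoter genes numbered 6 in ΔMAZ, namely Barhl1 at 4.25, Foxa1 at 15.44, Foxc1 at 5.40, Gata2 at 4.66, Lhx2 at 5.02 and 4.39, and Nkx6-1, a motor neuron and beta cell gene, at 4.25. In ΔCTCF/ΔMAZ they were Nkx6-1 at 5.49 and Lhx8 at 4.36. The change after auxin was thus 8 more genes in the line with MAZ and 4 fewer in the knockout line, and over all protein-coding genes the same counts went from 1531 to 3939 and from 1986 to 1337. The difference between the lines was not tested, and scaled to the inferred depth of WT the counts were 3 and 3 in the line with MAZ and 6 and 2 in the knockout line. Of 47 RAD21 peaks in ΔMAZ, 11 overlapped one in ΔCTCF/ΔMAZ, 23.4% (13.6 to 37.2) beside 22.4% of all, and of 50 in ΔCTCF, 11 did, 22.0% (12.7 to 35.2) beside 29.5%. With each pair of lists cut to equal numbers of the strongest peaks these were 8 of 19, 42.1% beside 51.7%, and 7 of 8, 87.5% beside 61.9%. Among the relocalized peaks 2 of 32 were called in ΔCTCF/ΔMAZ, at Nkx2-2 and Tbx1, 6.25% beside 10.8% of all relocalized peaks, and 9 of 18 retained peaks were, 50% beside 53.2%.

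The peaks are described next by family, with no comparison between families, each of which has 2 to 7 genes. Among the Tbx genes Tbx2 held 7 sites, of which 6 had CTCF in WT and ΔMAZ, and 5 of those lay downstream. RAD21 at 12273 bases from the start was 25.65 in WT, 5.72 after auxin and 28.18 in ΔMAZ, and at 16723 bases it was 19.52 and 7.39, and 32.43 and 6.41 in the knockout line. Tbx2 CTCF ranged from 5.33 to 19.33 in WT. Tbx4, a hindlimb gene, had no peak in any list. Tbx1, a pharyngeal arch gene, had RAD21 with auxin alone, at 3.80 and 4.56 in ΔCTCF and 5.03 in ΔCTCF/ΔMAZ. Tbx15 and Tbx20 each had RAD21 with CTCF in WT and ΔMAZ at a far site, lost after auxin: 7.73 and 3.55 for Tbx15 and 25.65 and 23.93 for Tbx20.

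Pax7 had the most sites of any gene, 8, in the longest gene window of the Pax family, and 4 of them appeared in 1 list only. Its RAD21 peaks were 3 in ΔCTCF, 1 in ΔMAZ at 4.81, and 0 in the other conditions. Pax2 had CTCF at 23.97 in WT and 20.08 in ΔMAZ, and none after auxin, at a site -1165 bases from the start, where RAD21 was 21.74 in WT, 4.53 in ΔCTCF and 23.04 in ΔMAZ. Pax1 and Pax9, genes of the axial skeleton and pharyngeal pouches, had CTCF without RAD21, at 7.32 and 15.31 in WT. Pax6, an eye gene, and Pax8, a thyroid and kidney gene, had no peak in any list.

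All 4 Fox genes had 1 CTCF peak each in WT and in ΔMAZ, and none after auxin. Foxa1 had CTCF at 23.97 and 12.46 and Foxc1 at 18.04 and 24.93, each with RAD21 in the same conditions. Foxf1 kept RAD21 in all 4 conditions at a site 8461 bases from the start, at 21.30, 6.67, 20.07 and 7.78. Foxa2, the endoderm and floor plate partner of Foxa1, lost RAD21 after auxin, from 7.45 in WT and 5.61 in ΔMAZ.

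The 4 Gata genes ranged from the strong Gata2 site to Gata6, which had no CTCF in any list and RAD21 at 4 sites of 1 list each. Gata3 had CTCF at 8.66 and 14.54 with RAD21 at 14.78 and 16.99 in WT and ΔMAZ, and Gata4 had CTCF at 3 sites, up to 17.42 in WT. Among the Irx genes Irx3 held 6 sites, and RAD21 was listed at -3397 bases at 6.52, 3.57 and 3.86 in WT, ΔCTCF and ΔMAZ without CTCF. Irx1 and Irx5 had no CTCF in WT, and Irx2 had CTCF once, at 6.84 in WT, and no RAD21. MAZ was at the promoter of 3 of the 4 Irx genes in WT and 2 in ΔCTCF, beside 21.0% and 21.7% of all genes, and that of Irx1 was not kept when WT was scaled to the inferred depth of ΔCTCF.

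Among the Lhx genes Lhx5, Lhx8 and Lhx9 had CTCF within the gene, at 23.30, 20.08 and 13.32 in WT, and RAD21 there was listed in WT and ΔMAZ alone. Lhx1 and Lhx6 had no peak. Among the Nkx genes Nkx2-2, a ventral neural gene, had 2 CTCF peaks in WT, at 19.45 and 17.27, and at the second of them RAD21 was called in ΔCTCF at 4.92, ΔMAZ at 6.60 and ΔCTCF/ΔMAZ at 5.06 but not in WT. Nkx6-1 held 6 sites. Nkx2-5, an early heart gene, had none. The Dlx pairs lie side by side, so that the windows of Dlx1 and Dlx2 overlap, as do those of Dlx5 and Dlx6, but no peak was counted for 2 genes. Dlx5 had CTCF at 8.66 and RAD21 at 15.65 in WT, and Dlx6 had no peak.

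Most of the remaining genes had CTCF with RAD21 in a flank or the gene body. Sox1, an early neural gene, had CTCF at -3561 bases at 11.29 in WT with RAD21 at 7.12, and Sox10, a neural crest gene, had 13.57 with RAD21 at 10.79, both lost after auxin. Sox17, an endoderm gene, had weak peaks in the gene, with RAD21 at 3.74 in WT and 2.46 in ΔCTCF at the CTCF site. Six3, a forebrain and eye gene, kept RAD21 12780 bases from the start at 20.99, 5.0 and 17.72 in WT, ΔCTCF and ΔMAZ, while Six2 had CTCF without RAD21. Barhl1 kept RAD21 upstream at 16.86, 5.29, 24.88 and 4.80. Olig2, a motor neuron and oligodendrocyte gene, had CTCF at 16.57 and RAD21 at 6.63 in WT, Neurog1 had 9.32 and 7.83, and Hand2 had peaks in ΔMAZ alone, CTCF at 5.48 and RAD21 at 5.41. Gbx2 had the strongest member CTCF peak in WT, 36.96 at -9411 bases, with MAZ at 4.84.

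The same counts were made over 4 other gene lists. Over all protein-coding genes 55.1% had CTCF within 10 kb in WT, and 8.99% had CTCF and 21.0% MAZ at the promoter. RAD21 was at the promoter of 6.98% in WT and 18.0% in ΔCTCF. Of 43 other genes of the same families, with a median length of 5178 bases, 19 had CTCF within 10 kb in WT and 0 at the promoter, 11 had MAZ at the promoter, and RAD21 promoter genes numbered 2 in WT and 7 in ΔCTCF. Of 39 Hox genes, whose clusters crowd many genes into a few windows, 6 had CTCF at the promoter in WT, and RAD21 promoter genes went from 5 to 9. Of 31 genes for Polycomb subunits and partners, with a median length of 28271 bases, 23 had MAZ at the promoter in WT, and RAD21 promoter genes went from 0 in WT to 9 in ΔCTCF. Of 16 pluripotency genes 10 had MAZ at the promoter in WT, and RAD21 promoter genes went from 4 to 9. With ΔCTCF scaled to the inferred depth of WT, 13.7% of all genes had a RAD21 promoter peak. The counts were 5 in the same families (11.6%) and 9 among Hox genes (23.1%). They were 5 among Polycomb genes (16.1%) and 8 among pluripotency genes (50%), each above its WT count. The 52 genes had 3 in both, 5.77% with an interval of 1.98 to 15.6, which holds 13.7%. The difference between the gene lists was not tested.

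The exact CTCF core string lay within 100 bases of 14 of 50 summits in WT, 28.0% (17.5 to 41.7) beside 49.6% of all CTCF peaks, and of 10 of 47 RAD21 summits, 21.3% (12 to 34.9) beside 45.8%. With 1 changed base allowed, the CTCF shares were 78% (64.8 to 87.2) and 87.1%, the second inside the interval of the first, and the RAD21 shares were 66.0% (51.7 to 77.8) and 84.5%, the second outside it. These differences were not tested. None of the 32 relocalized RAD21 summits had the exact string, which allows up to 10.7%, beside 2.04% of all relocalized peaks, and GGGAGGG on either strand was found at 2 of 32, 6.25% (1.73 to 20.2) beside 14.2%. At MAZ summits in WT that string was found at 11 of 21, 52.4% (32.4 to 71.7) beside 46.6%. In the RefSeq promoter windows of 300 bases on GRCm38.p6, matched by symbol for 38 of the 52 genes, 18 held GGGAGGG or its reverse complement, 47.4% (32.5 to 62.7), and 1 held the CTCF string, where 21.3% and 2.41% of 27025 promoters did. Both strands were searched, overlap between matches of the 2 strings was not examined, and a match is a description and not a binding site.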

How the data were processed

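ChIP-seq for CTCF, MAZ and RAD21 in 4 conditions gave 12 deposited peak lists, 1 for each antibody and condition; 8 further samples, which the labels give as the other CTCF and MAZ replicate of each condition, were not analysed here. The authors aligned reads to mm10 with Bowtie2 and called narrow peaks with MACS, each sample on its own, and the input control is not given in the sources used here. Per the file headers and values, the lists hold a score, the fold enrichment, and −log10 p and −log10 q as deposited by the authors. The fold enrichment is the ratio of summit pileup to local background, with a small constant added to both. Gene positions came from GENCODE basic annotation of mm10 and promoter windows from RefSeq. The 52 genes and the comparison lists were chosen with earlier results of these data known. Genes were named by a rule: every gene with a MAZ or RAD21 promoter peak, up to 8 with most sites, every gene with a relocalized RAD21 peak or with CTCF after auxin, and those without peaks. To account for every gene, values of Sox1, Sox10, Foxa2, Olig2, Dlx5, Pax1, Pax9, Lhx5, Lhx9 and Hand2 were added outside that rule, after they were seen.

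Peaks overlapping by 1 base or more counted as shared, and the counts for some pairs of lists were checked against bedtools 2.31.1. Python 3.11.15, pandas 2.3.3 and pysam 0.24.0 gave counts and Wilson 95% intervals, which cover counting error only; scripts were tested on simulated lists. With 1 list in each group analysed here, no significance test was run. Whole-number pileups were recovered from fold enrichment and −log10 p. They gave the listed −log10 p within 0.001 for 100% of RAD21 peaks and of MAZ peaks of WT and ΔCTCF. These pileups served to scale lists to an inferred depth, the lowest background over the narrowest peak width. For CTCF and the knockout MAZ lists the depth is unknown. Alternatives covered strength limits, equal list lengths, window sizes, overlap rules and depth.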

Additional observations from a re-analysis of the deposited data

Results flagged for a closer look

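In the lists as deposited, the number of RAD21 promoter genes among the 52 moved in opposite directions after auxin in the 2 cell lines. The change was 8 in the line with MAZ, from 3 genes to 11, and -4 in the Maz knockout line, from 6 to 2. This did not hold under every setting: with equal numbers of the strongest peaks the counts were 0 and 0 in the line with MAZ and 1 and 2 in the knockout line, and with −log10 q of at least 10 both lines went from 1 to 0. Over all protein-coding genes the counts as deposited moved the same ways, from 1531 to 3939 and from 1986 to 1337, and they were 379 and 796, and 460 and 1337, with equal numbers, and 899 and 780, and 1074 and 242, with the limit of 10. The difference between the lines was not tested, since RAD21 has 1 list in each condition. The RAD21 ΔCTCF library was 2.18 times as deep as WT by inference from the lists, and scaled to WT the line with MAZ had 3 genes before and 3 after auxin while the knockout line had 6 and 2, and all protein-coding genes had 1531 and 3006, and 1968 and 1337.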

How the results depend on the processing

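No paired analysis was possible because a condition has a single list for each antibody here. The limit for a share was the Wilson interval of its main value, and for a count a fixed ratio to its main count. By that ratio 16 and 12 genes with MAZ in WT, the second with −log10 q of at least 5, counted as unmoved. Of the values recomputed under other settings, 224 stayed within their limit and 75 moved. Each is a single count or share, so a comparison between conditions can turn where its values move: RAD21 peaks were 47 in WT and 50 in ΔCTCF as deposited, but 37 and 26 with −log10 q of at least 5, 30 and 9 with at least 10, 18 and 8 at equal list length, 63 and 58 with 25 kb flanks and 47 and 31 scaled to the inferred depth of WT. Promoter genes were 3 and 11, but 1 and 0 with at least 10, 0 and 0 at equal list length and 3 and 3 when scaled. In the knockout line they were 6 in ΔMAZ and 2 in ΔCTCF/ΔMAZ, but 1 and 2 at equal list length. In the counts below, "genes" had a peak, "promoter genes" had one at a start, and "peaks" lay in the windows. With −log10 q of at least 5, MAZ ΔCTCF had 14 peaks; RAD21 had 1 promoter gene in WT, 26 peaks and 2 promoter genes in ΔCTCF, and 8 genes, 8 peaks and 0 promoter genes in ΔCTCF/ΔMAZ, while 83.8% of RAD21 WT peaks were called in ΔMAZ and 86.5% met CTCF. With at least 10, CTCF ΔCTCF had 1 gene and 1 peak; MAZ had 6 genes, 6 peaks and 5 promoter genes in WT and 1 of each in ΔCTCF; RAD21 had 30 peaks and 1 promoter gene in WT and likewise 30 and 1 in ΔMAZ, 9 genes, 9 peaks and 0 promoter genes in ΔCTCF, and 5, 5 and 0 in ΔCTCF/ΔMAZ. With equal numbers of the strongest peaks in each list of an antibody, CTCF had 6 genes, 7 peaks and 0 promoter genes in WT and 5, 5 and 0 in ΔMAZ; RAD21 had 17, 18 and 0 in WT, 7, 8 and 0 in ΔCTCF and 17, 19 and 1 in ΔMAZ. With the 2 lists of a pair cut to equal length, CTCF was called after auxin at 57.1% of WT and 60% of ΔMAZ peaks, RAD21 of ΔMAZ at 42.1% and of ΔCTCF at 87.5% in ΔCTCF/ΔMAZ, and in ΔCTCF 75% of RAD21 peaks met CTCF, 22.2% met MAZ and 8.70% of MAZ peaks met RAD21, on 4 to 23 peaks. A reciprocal overlap of 50% left 1.89% of ΔMAZ CTCF peaks after auxin. Flanks of 5 kb gave CTCF 31 peaks in WT, 34 in ΔMAZ, 3 genes and 3 peaks in ΔCTCF and 2 and 2 in ΔCTCF/ΔMAZ, and RAD21 9 genes and 9 peaks in ΔCTCF/ΔMAZ; flanks of 25 kb gave CTCF 80 peaks in WT, 8 genes in ΔCTCF, and 8 genes and 8 peaks in ΔCTCF/ΔMAZ. A start limit of 500 bp left 0 CTCF promoter genes in WT and ΔMAZ and 1 for RAD21 in ΔCTCF/ΔMAZ. With 2500 bp CTCF had 7, 2, 8 and 1 and RAD21 13, 20, 13 and 4 over WT, ΔCTCF, ΔMAZ and ΔCTCF/ΔMAZ. Shares of all genes were not counted for these start limits or for the other flank sizes. At the inferred depth of WT, chosen after the data were seen, RAD21 ΔCTCF had 31 peaks and 3 promoter genes; fewer reads pass in that construction, and for the other settings the cause was not tested. A library of unknown depth, as for CTCF, limits any reading of absent peaks.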
